A study of Mus musculus with 8 samples.

Results

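The Ighv genes are the variable (V) gene segments of the immunoglobulin heavy chain. They were taken as all rows of the deposited expression table whose gene symbol begins with Ighv, which gave 123 of 23084 rows. The number after Ighv in a symbol names the V family, and the 123 rows fell into 15 families. The table comes from bulk RNA-sequencing of myeloid cells sorted from the spleens of C57BL/6 mice aged 6 to 8 weeks. Wild-type (wt) mice were compared with LmnaMyeKO mice, in which Cre driven by the LysM promoter deletes floxed Lmna, the gene of lamin A and lamin C, in myeloid cells. From each genotype, monocytic cells (CD11b+Ly6C+) and granulocytic cells (CD11b+Ly6G+) were sorted, with 2 samples in each of the 4 groups. The subset was read from the sample titles, because the cell-marker label reads CD11b+Ly6C+ for every sample. Whether replicates came from separate mice is not stated in the sources used here. The authors' published description of the RNA-sequencing does not say whether these mice bore tumors.

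A heavy chain variable domain is assembled in developing B cells, when one V segment is joined to a D and a J segment by the RAG recombinase. The segment chosen then reads through to a constant region gene such as Ighm, so each B cell clone transcribes mainly the V gene that it rearranged. Myeloid cells do not rearrange this locus.

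Of the columns in the table, the mean signal of each gene was used. It is the authors' mean, over libraries, of read counts divided by each library's size factor. With the number of libraries set to 8, the number of samples in the series, its low values were exact sums of whole reads. Other numbers of libraries were not tried. On this reading the mean joins both genotypes and both cell subsets. Reads here are counts as the authors' quantification program, RSEM, estimated them, taken as whole numbers. A gene's count can thus include shares of reads that match several genes. A single read in 1 library was worth between 0.0653 and 0.157 of signal, depending on the library. The size factors behind these values lay between 0.796 and 1.05 for all libraries except 1, which had 1.91. Which of the samples that library is was not determined. Values of single samples were not used here, so no difference between genotypes or subsets is reported, no replicate spread stands behind any value, and the order of genes with similar signals is not established. For the same reason the deletion of Lmna could not be checked.

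The V exon ends shortly after the conserved cysteine codon where the most variable loop of the heavy chain, CDR-H3, begins. The last 60 bases of the V exon are shown for the highest gene of each of the 6 families with the largest summed signal, because this is where a V segment meets the D segment. They are given 5′ to 3′ on the minus strand of mm10, which holds all 123 genes, and come from GENCODE M21 transcripts. Capitals run from the last TGT to the end of the exon.
Ighv1-26, chr12:114788372-114788431: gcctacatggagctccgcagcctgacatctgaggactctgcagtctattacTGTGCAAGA
Ighv5-4, chr12:113597446-113597505: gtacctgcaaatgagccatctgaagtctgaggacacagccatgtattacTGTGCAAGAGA
Ighv2-9-1, chr12:113769850-113769909: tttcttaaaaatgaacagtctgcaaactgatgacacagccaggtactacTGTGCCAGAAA
Ighv8-8, chr12:115294062-115294121: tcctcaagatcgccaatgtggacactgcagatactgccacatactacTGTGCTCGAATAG
Ighv3-6, chr12:114288152-114288211: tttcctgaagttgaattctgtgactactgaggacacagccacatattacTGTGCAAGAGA
Ighv9-3, chr12:114140692-114140751: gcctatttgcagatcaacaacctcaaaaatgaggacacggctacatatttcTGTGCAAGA
The ending TGTGCAAGA was shared by 52 genes of 2 families, which together held 57.9% of the summed Ighv signal. Ighv1-26 and Ighv9-3 both carry it, while Ighv8-8 ends with a different run after the same first letters.

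Ighv transcripts were present in the mean but made up a small part of the libraries. The summed signal of the 123 genes was 13395, or 0.0531% of the 25236459 summed over all rows, and corresponded to between 85333 and 205029 reads. The median Ighv gene had a signal of 45.7, and the median of all rows was 46.8. Ighv gene models are short, between 297 and 480 bases of exon, and longer transcripts give more reads. Divided by exon length, the median Ighv gene had 128 per kb, above the 18.8 per kb of the 23004 rows with a length. A signal above 1 was reached by 110 Ighv genes (89.4%), against 85.2% of all rows. A signal above 100 was reached by 43 Ighv genes (35.0%), against 44.3% of all rows, but 100 per kb was passed by 69 Ighv genes (56.1%), against 30.1%. On either side of the limit of 1 lay Ighv1-23 at 1.04, Ighv3-2 at 1.09 and Ighv1-70 at 1.15, and Ighv1-62 at 0.964, Ighv1-14 at 0.959 and Ighv1-13 at 0.913.

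In the mean over libraries, the signal was spread unevenly over the V genes without being held by a single one. How it was spread within a single library could not be seen. Ighv1-26 was highest, with a mean signal of 786 that rests on 5009 to 12032 reads. Ighv1-55 followed at 636, Ighv5-4 at 604, Ighv1-64 at 578, Ighv1-53 at 536 and Ighv1-81 at 515. The next 4 were Ighv1-19 at 416, Ighv3-6 at 410, Ighv8-8 at 395 and Ighv1-82 at 386. These 10 genes held 39.3% of the Ighv signal and Ighv1-26 alone held 5.87%. Per kb of exon, the first gene was 1.46-fold above the second, 2.24-fold above the tenth and 17.5-fold above the median Ighv gene. It took 15 genes to reach 50% of the signal and 53 to reach 90%, while the lowest 61 together held 5.86%. The same 10 genes came first when signals were divided by exon length. In the ranking of all rows, Ighv1-26 stood at position 4974 by signal and 490 by signal per kb.

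**Figure D1:**
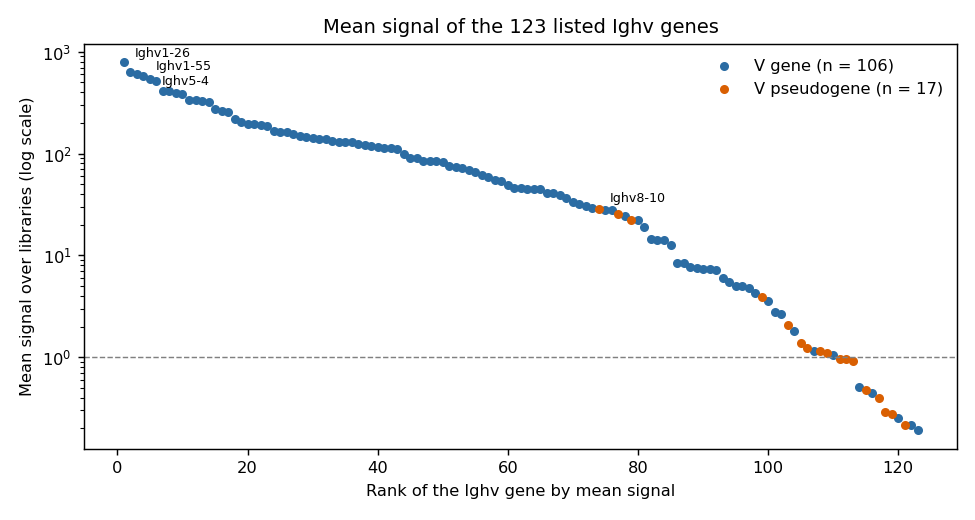
Mean signal over libraries (log scale) of the 123 Ighv genes against their rank, with V genes in blue, V pseudogenes in orange and a dashed line at a signal of 1. The curve falls without a step from Ighv1-26 at 786, and the first pseudogene, Ighv8-10, appears at 28.3.

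Ighv1, the largest V family of the mouse, held most of the signal. Its 63 genes were 51.2% of the listed Ighv genes and carried 58.7% of their summed signal. Its median was 58.8, and its members ran from Ighv1-26 at 786 to Ighv1-33 at 0.276. Ighv5 came next in summed signal, with 11.4% from 10 genes and a median of 115, from Ighv5-4 at 604 to Ighv5-12-4 at 0.44. The 9 Ighv2 genes held 5.61% with a median of 75.3, from Ighv2-9-1 at 218 to Ighv2-7 at 2.65.

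Several smaller families owed most of their signal to 1 gene. Ighv8-8 supplied 54.7% of the signal of the 11 Ighv8 genes, whose median was only 7.21 and whose lowest was Ighv8-14 at 0.217. In Ighv3, Ighv3-6 supplied 79.5% of the signal of 7 genes with a median of 14.1, and the lowest was Ighv3-2 at 1.09. Ighv6-3, at 336, gave 79.7% of the signal of the 3 Ighv6 genes, while Ighv6-5 stood at 0.191, the lowest Ighv value of all. Ighv9-3, at 329, gave 67.3% of the signal of the 4 Ighv9 genes, of which Ighv9-2 was lowest at 41.3. Ighv14 was more even, with 4 genes between 36.9 (Ighv14-1) and 157 (Ighv14-2), and its median of 128 was the highest of the families with at least 3 genes. The 3 Ighv7 genes ranged from 7.73 (Ighv7-4) to 82.0 (Ighv7-3).

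Families of 1 or 2 listed genes gave little. Ighv10-1 and Ighv10-3 had signals of 85.0 and 55.1. Ighv4-1 stood at 119 beside the pseudogene Ighv4-2 at 1.23. The single genes Ighv13-2, Ighv15-2 and Ighv12-3 had 33.4, 24.1 and 14.6. Ighv11 and Ighv12 genes are known from B-1 cells that bind phosphatidylcholine. Of these, Ighv11-2 reached 197 and Ighv12-3 14.6.

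**Figure D2:**
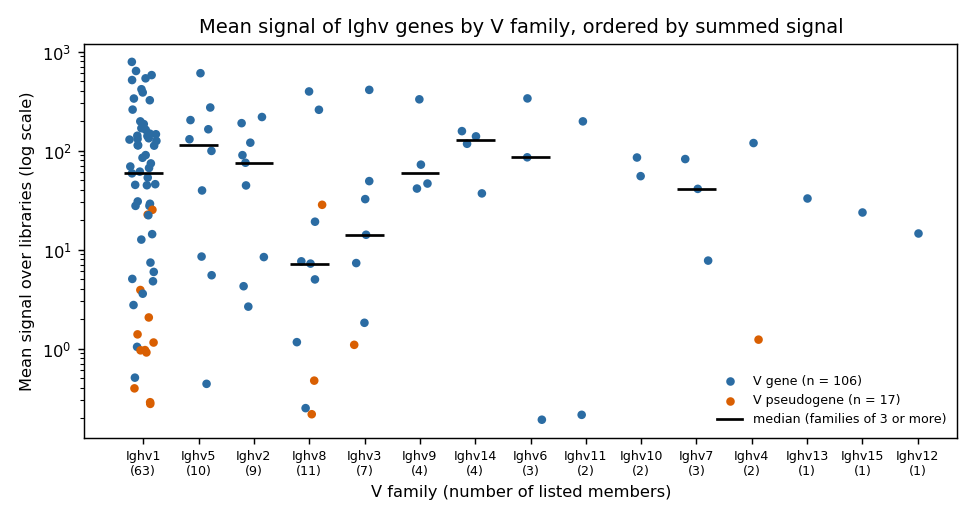
Mean signal over libraries (log scale) of each Ighv gene by V family, ordered by summed signal, with V genes in blue, pseudogenes in orange and black bars for the medians of families with at least 3 genes. Ighv1 spans from 0.276 to 786, and the medians run from 7.21 in Ighv8 to 128 in Ighv14.

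Genes annotated as V genes were nearly all listed, whereas most pseudogenes were not. Of 113 Ighv genes that GENCODE M21 types as V genes, 106 (93.8%) were in the table, against 17 of 70 pseudogenes (24.3%). No low row read back in a single way had reads in fewer than 2 libraries, so genes not listed may still have had reads. The authors counted reads on an earlier GENCODE release, and a gene absent from it could not be listed whatever its reads. How many of the genes not listed were absent from that release was not checked. The V genes held 99.3% of the signal with a median of 70.5, and the pseudogenes 0.681% with a median of 1.09. A signal above 1 was seen for 101 V genes (95.3%) and 9 listed pseudogenes (52.9%). Only 3 pseudogenes exceeded 5, namely Ighv8-10 at 28.3, Ighv1-2 at 25.2 and Ighv1-41 at 22.5.

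The lowest Ighv values rested on a handful of reads. For the 21 genes with a signal under 2.2, the whole counts behind the mean could be read back. These estimated reads numbered from 2 to 17 with a median of 8. Of these genes, 13 were pseudogenes and 8 were V genes. In 9 of them all reads came from 2 libraries, and none had reads in all 8. The floor of 2 reads in 2 libraries held for all low rows of the table read back in a single way. It is therefore not particular to Ighv genes. Ighv6-5 had 2 reads in 2 libraries, and Ighv1-13 had 11 reads, also in 2 libraries. Ighv1-38 had 17 reads in 5 libraries.

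V genes of one family resemble each other closely, which limits how reads can be assigned to them. Pairs within a family had a median identity of 84.7% over the shorter transcript of the pair, against 62.3% between families. For 23 genes, holding 14.5% of the signal, another annotated Ighv gene was at least 97% identical. None of the 10 highest genes was among them, but Ighv1-26 and Ighv1-55 lay just under this limit, both at 96.9%. At a limit of 96% there were 48 such genes with 46.5% of the signal, 5 of the 10 highest included. Of 12 listed pairs at least 97% identical, 6 differed more than 10-fold in signal. Because reads shared by near-identical copies are divided by an estimate, the values of these pairs are uncertain, and reads shared with other close relatives are divided in the same way.

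Ighv1-72 is the V gene known from the anti-nitrophenyl response of C57BL/6 mice. It had a signal of 335, and Ighv1-62-3, identical to it at 99.2% of aligned bases, had 7.38, a 45.3-fold difference in signal. The last 240 bases of both V exons are shown because they differ at only 2 positions, marked by capitals.
Ighv1-72, chr12:115757984-115758223: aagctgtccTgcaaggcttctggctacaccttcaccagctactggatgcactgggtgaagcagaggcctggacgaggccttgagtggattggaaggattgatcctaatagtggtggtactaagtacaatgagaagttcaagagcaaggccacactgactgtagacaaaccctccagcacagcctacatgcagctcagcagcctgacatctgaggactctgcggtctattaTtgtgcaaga
Ighv1-62-3, chr12:115460999-115461238: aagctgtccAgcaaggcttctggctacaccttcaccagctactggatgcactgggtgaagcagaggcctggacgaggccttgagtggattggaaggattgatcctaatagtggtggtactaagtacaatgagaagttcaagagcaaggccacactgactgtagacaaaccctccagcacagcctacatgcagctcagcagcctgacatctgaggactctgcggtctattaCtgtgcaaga
Counted from the first base shown, the differences from Ighv1-72 to Ighv1-62-3 are T10A and T231C. T10A turns a TGC codon, which encodes cysteine, into AGC, which encodes serine, and T231C leaves TAT and TAC, both for tyrosine.

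The pair Ighv11-2 and Ighv11-1 stood farther apart still. Ighv11-2 had a signal of 197, and Ighv11-1, at 98.9% identity, had 0.214 from 2 estimated reads. Their transcripts differ in length, 461 and 353 bases, and the identity covers the shorter one. Their last 240 bases again differ at 2 positions, given in capitals.
Ighv11-2, chr12:114048241-114048480: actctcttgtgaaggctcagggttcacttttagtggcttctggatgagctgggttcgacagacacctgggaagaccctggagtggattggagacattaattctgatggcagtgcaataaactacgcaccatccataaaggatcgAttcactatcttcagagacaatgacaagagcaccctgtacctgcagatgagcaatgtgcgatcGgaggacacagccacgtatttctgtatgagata
Ighv11-1, chr12:113981879-113982118: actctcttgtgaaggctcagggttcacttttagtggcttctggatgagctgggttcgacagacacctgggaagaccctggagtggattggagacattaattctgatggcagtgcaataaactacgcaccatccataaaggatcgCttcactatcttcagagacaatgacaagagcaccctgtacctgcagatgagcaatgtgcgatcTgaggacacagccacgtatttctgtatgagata
The differences from Ighv11-2 to Ighv11-1 are A145C and G208T, counted in the same way. Both fall on the last base of a codon, CGA to CGC and TCG to TCT, and change no amino acid.

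Ighv1-62-2 and Ighv1-71 were the most alike of all listed pairs, at 99.7% identity, and had signals of 58.8 and 22.2. They share every one of the last 240 bases of the V exon, printed once, although their transcripts differ in length (378 and 359 bases).
Ighv1-62-2, chr12:115446409-115446648: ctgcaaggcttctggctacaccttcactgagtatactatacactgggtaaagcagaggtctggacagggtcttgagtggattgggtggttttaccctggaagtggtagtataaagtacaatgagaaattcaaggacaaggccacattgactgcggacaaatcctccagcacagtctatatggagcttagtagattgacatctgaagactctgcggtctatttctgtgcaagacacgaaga
Reads that lie within this stretch alone match both genes, and their signals differed 2.65-fold. Among the other pairs, Ighv1-15 at 131 stood beside Ighv1-23 at 1.04, Ighv2-2 at 189 beside Ighv2-4 at 4.26, and Ighv1-63 at 66.6 beside the pseudogene Ighv1-73 at 3.90. Ighv1-50 at 162 and Ighv1-69 at 141 were the closest in signal.

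The Ighv genes lie on chr12:113578504-116000461 (mm10), all upstream of the constant region gene Ighm at chr12:113418558-113422730. Their distance from Ighm ran from 156 to 2577 kb, and the Ighv1 genes occupied the distal part from 1046 kb onward. Divided into 3 sets of 41 genes in locus order, the nearest held 31.2% of the signal, the middle 27.5% and the farthest 41.3%. The medians were 49.1, 29.0 and 58.8, and the numbers of genes above 100 were 15, 13 and 15. The nearest set held 2 pseudogenes, the middle 8 and the farthest 7. Across genes, signal and distance had a Spearman correlation of -0.03 over the 123 genes and 0.06 over the 106 V genes, a description only, since the genes share the same libraries. Divided instead into 62 near and 61 far genes, the order of the medians turned, with 54.2 on the near side and 30.6 on the far side.

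At the near end, Ighv5-2, known for its frequent use in early B cell development, had a signal of only 5.50. Its neighbours Ighv2-2 and Ighv5-4 had 189 and 604. The 3 most distant genes were the pseudogene Ighv1-83 at 1.39, Ighv1-84 at 12.6 and Ighv1-85 at 84.5.

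**Figure D3:**
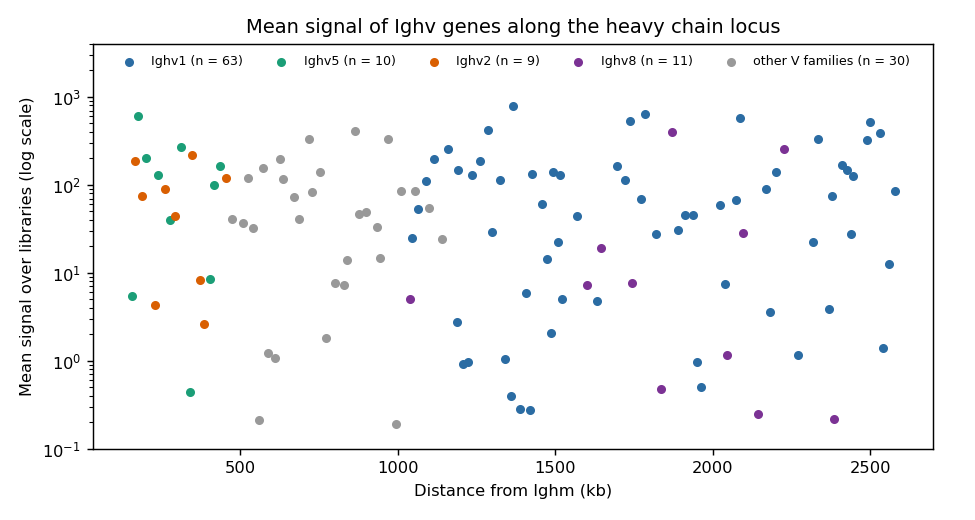
Mean signal over libraries (log scale) of each Ighv gene against its distance from Ighm in kb, coloured by V family. High and low genes occur along the whole 2422 kb, with the Ighv5 and Ighv2 genes at the near end and the Ighv1 genes from 1046 kb onward.

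Levels of Ighv genes and of other immunoglobulin and marker genes were compared as signal per kb of exon. The heavy chain constant genes summed to 57288 per kb, 1.59-fold above the 35929 per kb of all Ighv genes. Ighm, the constant region of IgM, had 33999 per kb, which is 15.2-fold above the 2240 per kb of Ighv1-26. Among the switched isotypes, Ighg2c had 8552, Igha 7105, Ighg2b 3589, Ighg3 543, Ighg1 295 and Ighe 14.5 per kb, and Ighd had 3190. The joining genes Ighj1 to Ighj4 were not among the rows. The light chain V genes, 112 Igkv and 3 Iglv, summed to 69118 per kb, so the Ighv sum was 0.52 times theirs. The light chain constant gene Igkc stood at 76527 per kb, and Iglc1, Iglc2 and Iglc3 at 2980, 3085 and 1664.

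Markers of B cells were present in the same mean. All 10 B cell markers had a signal above 100, with a median of 918 per kb, among them Cd79a at 4065 and Cd79b at 3166, which form the signalling part of the B cell receptor. Plasma cell markers had a median of 117 per kb, with Jchain, which links polymeric antibody, at 4310 and Tnfrsf17 at 30.1. Markers of marginal zone and B-1 B cells had a median of 469 per kb but were split. Cd9 had 3216, Pstpip2 656, Mzb1 650 and Cr2 289, against Cd5 at 58 and Zbtb32 at 18.4. Cr2 is also in the B cell list and Mzb1 in the plasma cell list, so the median does not single out these cells. Which cells gave the Cd9 and Pstpip2 signal was not tested, and the libraries are of sorted myeloid cells. T and NK cell markers had a median of 139. Neutrophil markers had a median of 78217 per kb, led by S100a9 at 1389954. Monocyte markers had a median of 2119, above that of the B cell markers. They ran from Lyz2 at 79128 through Itgam at 10760 and Csf1r at 3838 to Ly6c1 at 37.1. F13a1 had 401, Ccr2 370 and Cx3cr1 157. Those genes and Ly6c1 lay below the B cell median of 918. So did Ms4a1 at 822, Fcer2a at 718, Pax5 at 516, Blk at 490 and Cr2 at 289, which are B cell markers themselves. The gate marker genes Itgam, Ly6g and Ly6c2 stood at 10760, 8337 and 5260 per kb. Of the recombination genes, Rag1 had 46.4, Rag2 7.68 and Dntt 54.2 per kb, and the list of recombination and heavy chain transcription genes had a median of 54.2, with the coactivator Pou2af1 highest at 894. The part of B cells in the Ighv signal was not tested, and in bulk samples more cells of a type and more RNA per cell cannot be told apart.

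**Figure D4:**
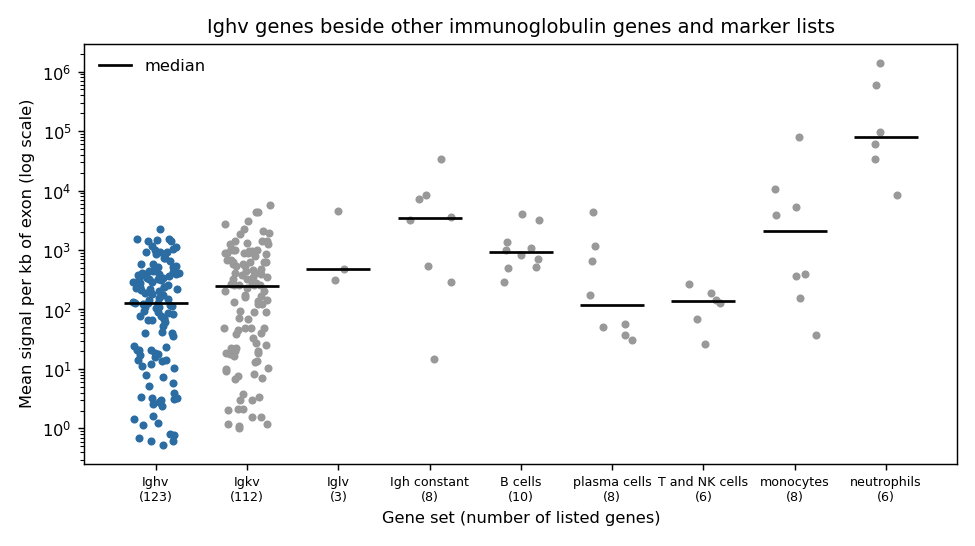
Mean signal per kb of exon (log scale) of each Ighv gene (blue) beside light chain V genes, heavy chain constant genes and marker lists (grey), with black bars for medians. The Ighv median of 128 per kb lies below the 244 of Igkv genes and the 918 of B cell markers, and neutrophil markers are highest at 78217.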

How the data were processed

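RNA from 8 samples of sorted spleen myeloid cells was sequenced. The authors trimmed reads with Cutadapt 1.14, mapped them to mm10 using STAR 2.5.2b, estimated gene counts with RSEM 1.3.0 on GENCODE annotation and ran DESeq2 1.20.0; the submitters' processing notes also name FastQC 0.11.5 and Picard 1.119. The deposited signal is the authors' mean of counts divided by size factors. The other columns hold the authors' own comparison of LmnaMyeKO with wt CD11b+Ly6C+ cells (log2 fold change, standard error, statistic, p-values and fold change) and were not used. The direction of change between genotypes is therefore not reported, and the planned count test was not run, since it needs values per sample. Depth per sample is unknown from the table, and read numbers cover counting only.

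Rows were matched by identifier to the newer GENCODE M21 models, also on mm10 (123 of 123 Ighv rows, 23004 of 23084 in all), which gave positions, gene types, exon lengths and sequences. With the number of libraries set to 8, the value of 1 read in each was found from the spacing of low signals. All 5344 rows under 2.2 were then matched to whole reads within 3e-09, 5340 of them in a single way. On 13628 simulated low signals of the whole table, the step returned the right number of reads for 100% of them. The simulation took whole reads and the number of libraries as given, so it could not test either of them. For higher signals the reads are given as the range between all reads falling in the library where 1 read is worth most and in that where it is worth least. Identity was computed by edlib 1.3.9.post1 alignment of the shorter transcript within the longer. Ends of the longer transcript beyond the shorter one were not counted. Python 3.11.15, pandas 2.3.3, scipy 1.17.1 and matplotlib 3.10.9 were used.

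The genes and lists were chosen with earlier results of these data known. Named genes are the 10 highest Ighv genes, the highest and lowest of each family of at least 3, single-gene families, the 3 nearest and 3 farthest from Ighm, and the marker and pathway lists; promoters and proteins, also in that rule, were not used here. The identity limit of 97%, the limit of 2.2, the named pairs, the Ighv4, Ighv10 and Ighv11 genes, the pseudogenes above 5, the genes around the limit of 1, and Ighv1-38 were chosen after their values were seen. Alternatives were other signal limits, signal per kb, leaving out the highest gene or the pseudogenes, an identity limit of 96%, and a split of the locus into 2 sets of genes in place of 3.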

Additional observations from a re-analysis of the deposited data

How the results depend on the processing

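No paired analysis was possible because the values used are means over all libraries. For the same reason the planned edgeR and DESeq2 fits, the replicate block and leaving out each replicate were not run. The number of Ighv genes above the limit was 110 at a limit of 1, 95 at 5 and 85 at 10. The share of V genes above the limit fell from 95.3% to 86.8% at a limit of 5 and 77.4% at 10, while that of pseudogenes went from 52.9% to 17.6% at both. The Ighv1 share of the signal was 58.7%, 58.9% per kb, 58.6% without pseudogenes and 56.1% without Ighv1-26, and Ighv1 and Ighv5 stayed first and second in each. The 10 highest genes held 38.7% per kb. Among genes above 1, the highest family median was 130, in Ighv5, in place of 128 in Ighv14. The mean signal of the nearest genes over that of the farthest was 0.756 with 3 sets in locus order and 0.886 with 2. The ratio of medians turned from 0.835 with 3 sets to 1.77 with 2, an alternative chosen after seeing the data, so no direction along the locus is given. Also chosen after seeing the data, the median Ighv gene over the median of all rows was 0.976 by signal and 6.81 per kb, and the genes with a near-identical copy numbered 23 at 97% and 48 at 96%. Genes with few reads and near-identical copies are the least certain values, and nothing here bears on differences between samples.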
